A study of Mus musculus with 26 samples.

Results

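The 10 genes described here encode regulators of the naive state of mouse embryonic stem cells: Klf2, Klf4, Klf5, Esrrb, Tfcp2l1, Tbx3, Prdm14, Nr0b1, Zfp42 and Tcl1. They were chosen by name out of the 22180 genes that a probe set with exactly 1 gene symbol stood for on an Affymetrix Mouse Gene 2.0 ST array. The 10 genes and the gene lists used below were chosen with earlier results of these data known. Counts set beside shares of all genes are therefore descriptive. Each of the 10 had 1 such probe set, and all 10 passed the filter that left out the dimmest 0.333 of genes by mean signal. The cells were J1 embryonic stem cells, a mouse line, cultured over irradiated embryonic fibroblasts in medium with serum and leukaemia inhibitory factor (LIF), and poly(A) RNA was hybridised. A time course of 18 arrays covered Mettl14 knockdown, Mettl3 knockdown and scramble at 0 h, 4 h and 8 h, with 2 arrays in each of its 9 groups. A further 8 arrays at 0 h, called the repeat set here, covered each knockdown beside scramble arrays that belong to it, in 4 groups of 2. Mettl3 and Mettl14 form the enzyme that methylates adenosine in messenger RNA. The labels describe lentiviral short hairpin RNA with puromycin selection and also transfected small interfering RNA, and do not assign either to an array. The agent of the 4 h and 8 h incubations is not named. The titles call the 2 arrays of a group biological replicates but do not say whether they came from separate cultures, and p-values here measure only the spread between these arrays.

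In mouse embryonic stem cells a naive state, like that of the early epiblast, is held by a network of transcription factors that reinforce each other. LIF acts through its receptor and the factor Stat3 and feeds into the network through Klf4 and Tfcp2l1. Klf2, Klf4 and Klf5 are zinc finger factors of the Krüppel-like family that can stand in for each other, Esrrb is an orphan nuclear receptor, Tbx3 is a T-box factor, and Prdm14 is a PR domain protein that holds DNA methyltransferases and FGF signalling down. Nr0b1 (Dax1) is an orphan nuclear receptor without a classical DNA-binding domain, Zfp42 (Rex1) is a zinc finger protein widely used as a marker of the naive state, and Tcl1 is a cofactor of the kinase Akt.

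RefSeq promoter sequences of GRCm38.p6, each holding 250 bases before and 50 bases after a gene's start, were available for 7 of the 10 genes, as 8 promoters. Those of Zfp42 and Tfcp2l1 are shown because they alone among the 8 held any of the 5 motifs searched. Relative to the average transcript, moreover, the RNA of Zfp42 fell over 8 h while that of Tfcp2l1 did not. The direction of Tfcp2l1 depended on the scaling, as given below. Capitals mark matches to a motif. The first is chr8:43306960-43307259 on the minus strand and the other is chr1:118627695-118627994 on the plus strand, both written 5′ to 3′ along the gene.
Zfp42: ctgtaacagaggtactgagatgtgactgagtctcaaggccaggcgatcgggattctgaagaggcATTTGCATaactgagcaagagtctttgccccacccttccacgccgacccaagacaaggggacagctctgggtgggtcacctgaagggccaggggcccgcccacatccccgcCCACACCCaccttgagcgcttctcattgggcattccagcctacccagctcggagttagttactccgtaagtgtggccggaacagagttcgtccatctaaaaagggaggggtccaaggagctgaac
Tfcp2l1: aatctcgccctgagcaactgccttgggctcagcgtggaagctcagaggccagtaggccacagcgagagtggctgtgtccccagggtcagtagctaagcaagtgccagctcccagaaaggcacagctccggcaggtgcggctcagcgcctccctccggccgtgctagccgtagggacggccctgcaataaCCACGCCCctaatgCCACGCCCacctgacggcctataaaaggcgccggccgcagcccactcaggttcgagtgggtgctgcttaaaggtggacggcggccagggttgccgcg
In the Zfp42 promoter, bases 65 to 72 matched the octamer ATGCAAAT that the Pou5f1 protein binds, and bases 176 to 183 matched the Klf motif GGGNGTGG. In the Tfcp2l1 promoter, bases 190 to 197 and 204 to 211 matched the Klf motif. All 4 matches lay on the strand opposite to the gene, and none overlapped another. Searched on both strands, the Klf motif was present in 17.6% and the octamer in 1.74% of 32851 mouse promoters of that length. None of the 8 promoters held the Esrrb motif TNAAGGTCA (present in 1.28% of all promoters), the Stat3 motif TTCCNGGAA (1.15%) or the paired Tfcp2l1 motif (3.44%). A match is a string of letters, not a measured binding site.

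Values are log2 signals made with RMA by the authors, so a difference of 1 is a doubling of signal, and levels of different probe sets cannot be set against each other. Replicate arrays correlated at 0.9869 to 0.9926 (Pearson's r over probe sets). Mettl14 signal in Mettl14 knockdown cells was 30.9% of that in scramble cells at 0 h in the time course and 39.0% in the repeat set. The only probe set of Mettl3, shared with Tox4, was at 26.9% and 23.6% of scramble in Mettl3 knockdown cells. Both scramble controls of the repeat set have a replicate 2 whose description field reads 4 h and whose remaining labels read 0 h. Their Klf2 signals, 10.85 and 10.77, stood close to the 10.93 and 10.72 of replicate 1, whereas Klf2 changed by -1.54 over 4 h in scramble cells of the time course.

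Summed signals of several marker lists differed between the knockdowns and scramble. Of 20 markers of fibroblasts, 19 had a probe set and 16 passed the filter, with Lum, Dcn and Postn below it. Their summed linear signal was 10160 to 10460 in Mettl14 knockdown, 9994 to 10040 in Mettl3 knockdown and 7952 to 7985 in scramble at 0 h. In the repeat set it was 11880 to 11930 in Mettl14 knockdown against 10800 to 10960 in its scramble, and 10710 to 10830 in Mettl3 knockdown against 10080 to 10180 in its own. Bright probe sets weigh most in such a sum, here Fn1, Tagln, Acta2 and Mmp2. Of the 16, 6 were higher and 1 lower with Mettl14 knockdown at 0 h in the time course, and 6 higher and 2 lower with Mettl3 knockdown. Of all genes, 19.4% were higher and 20.1% lower with Mettl14 knockdown, and 19.3% and 18.6% with Mettl3 knockdown. The 8 markers of embryonic stem cells summed to 26990 to 27650 in Mettl14 knockdown, 26720 to 26900 in Mettl3 knockdown and 32180 to 32590 in scramble at 0 h, and at 8 h to 23290 to 23350, 21930 to 21940 and 27590 to 28530. The 9 trophectoderm markers summed to 8966 to 9067, 9580 to 9955 and 2825 to 2841 in those 3 groups at 0 h. Krt8 and Krt18, keratins of simple epithelia, were the 2 with the smallest adjusted p and the brightest of the 9 (mean log2 signals 11.8 and 10.8). Of the 8 tested, 5 were higher and 1 lower with Mettl14 knockdown, and 4 higher and 1 lower with Mettl3 knockdown. The lowest differences were -1.33 and -1.20. The 6 primitive endoderm markers summed to 593.9 to 652.7, 641.5 to 667.1 and 684.5 to 720.7 in the same groups. The part of these shifts in the results below was not tested. Fewer cells of a type and less RNA per cell cannot be told apart in bulk RNA.

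At 0 h in the time course, 9 of the 10 regulators were lower in Mettl14 knockdown cells, with Klf5 as the exception, and all 10 were lower in Mettl3 knockdown cells. Of all 14787 genes tested, 20.1% were lower after Mettl14 knockdown and 18.6% after Mettl3 knockdown at an adjusted p under 0.05 from limma with Benjamini-Hochberg adjustment. The median log2 difference of the 10 was -1.08 with Mettl14 knockdown and -1.09 with Mettl3 knockdown, beside -0.004 and 0.003 over all genes. The 2 knockdowns share the scramble arrays at 0 h, so these counts are not independent.

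Among the Krüppel-like factors, Klf4 and Klf2 fell and Klf5 moved little. Klf4 (chromosome 4, 55527137 to 55532475, GRCm38.p6 here and below) stood at 8.69 and 8.67 in Mettl14 knockdown, 8.53 and 8.43 in Mettl3 knockdown, and 9.83 and 9.93 in scramble. Both knockdowns lay below every scramble array, with log2 differences of -1.20 ± 0.10 (standard error from limma here and below, adjusted p = 1.35e-06) and -1.40 ± 0.10 (adjusted p = 3.75e-07), which left 43.6% and 37.9% of the scramble signal. Klf2 (chromosome 8, 72319062 to 72321654) stood at 9.29 and 9.15 in Mettl14 knockdown, 9.07 and 9.02 in Mettl3 knockdown, and 10.13 and 10.12 in scramble. It was thus at 53.4% and 47.2% of scramble (log2 differences -0.91 ± 0.08 and -1.08 ± 0.08, adjusted p = 4.22e-06 and 1.01e-06). Klf5 (chromosome 14, 99298691 to 99313412) stood at 12.10 and 12.00 in Mettl14 knockdown, 11.86 and 11.93 in Mettl3 knockdown, and 12.14 and 12.19 in scramble. Its difference was -0.12 with Mettl14 knockdown (95% interval -0.25 to 0.01, adjusted p = 0.149) and -0.26 ± 0.06 with Mettl3 knockdown (adjusted p = 0.00384). The arrays of Klf5 did not overlap between either knockdown and scramble, but the gap was small beside those of the other Krüppel-like factors.

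The DNA-binding partners in the network fell together. Esrrb (chromosome 12, 86361117 to 86521628) stood at 7.50 on both arrays of Mettl14 knockdown, at 7.46 and 7.53 in Mettl3 knockdown, and at 8.62 and 8.56 in scramble, a difference of -1.09 ± 0.08 for each knockdown (adjusted p = 7.83e-07 and 7.92e-07). Tbx3 (chromosome 5, 119670534 to 119684724) stood at 8.67 and 8.74 in Mettl14 knockdown, 8.70 and 8.69 in Mettl3 knockdown, and 9.92 and 9.80 in scramble, which is 44.7% and 44.5% of the scramble signal. The 2 knockdowns overlapped for Esrrb and for Tbx3 and stood apart from scramble. Tfcp2l1 (chromosome 1, 118627923 to 118685168) stood at 10.22 and 10.36 in Mettl14 knockdown, 10.65 on both Mettl3 knockdown arrays, and 11.38 and 11.39 in scramble. Its differences were -1.09 ± 0.06 and -0.73 ± 0.06, and Mettl14 knockdown lay below Mettl3 knockdown (-0.36 ± 0.06, adjusted p = 0.00364). Prdm14 (chromosome 1, 13113428 to 13127163), the dimmest probe set of the 10, stood at 7.20 and 7.21 in Mettl14 knockdown, 7.11 and 7.07 in Mettl3 knockdown, and 8.31 and 8.25 in scramble, or 47.5% and 43.8% of scramble.

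The last 3 genes fell by unlike amounts. Tcl1 (chromosome 12, 105216753 to 105222737) stood at 9.24 and 9.19 in Mettl14 knockdown, 9.42 and 9.46 in Mettl3 knockdown, and 10.76 and 10.74 in scramble. This was the deepest loss of the 10 with Mettl14 knockdown, to 34.4% of scramble (-1.54 ± 0.06, adjusted p = 2.54e-09), and with Mettl3 knockdown it kept 40.2% (-1.31 ± 0.06, adjusted p = 1.18e-08). Zfp42 (chromosome 8, 43295067 to 43307009), whose promoter is printed above, stood at 11.56 and 11.55 in Mettl14 knockdown, 11.54 and 11.53 in Mettl3 knockdown, and 12.21 and 12.33 in scramble, or 61.0% and 60.2% of scramble. The knockdown arrays lay close to each other and below both scramble arrays. Nr0b1 (chromosome X, 86191775 to 86195947) stood at 11.98 and 12.02 in Mettl14 knockdown, 11.65 and 11.71 in Mettl3 knockdown, and 12.47 and 12.53 in scramble. It was at 70.7% of scramble with Mettl14 knockdown and 56.5% with Mettl3 knockdown, and the knockdowns themselves differed by 0.32 ± 0.05 (adjusted p = 0.00271). Of the 10 genes, 3 differed between the knockdowns at 0 h, these being Tfcp2l1, Nr0b1 and Tcl1, beside 6.07% of all genes. The Tcl1 difference of -0.23 ± 0.06 (adjusted p = 0.0492) did not pass in 14 of the fits that left out an array.

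In the repeat set all 10 regulators were again lower after either knockdown, beside 16.9% of all genes with Mettl14 knockdown and 17.4% with Mettl3 knockdown. The losses were smaller for most, with a median of -0.44 with Mettl14 knockdown and -0.74 with Mettl3 knockdown. Each knockdown had scramble arrays of its own here, and none of the 10 differed between the 2 scramble controls by limma, beside 0.67% of all genes. At an unadjusted p under 0.05 there were 2, Klf2 and Klf4, which also passed after adjustment with eBayes trend and robust settings. No share of all genes is given for those other rules.

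**Figure D1:**
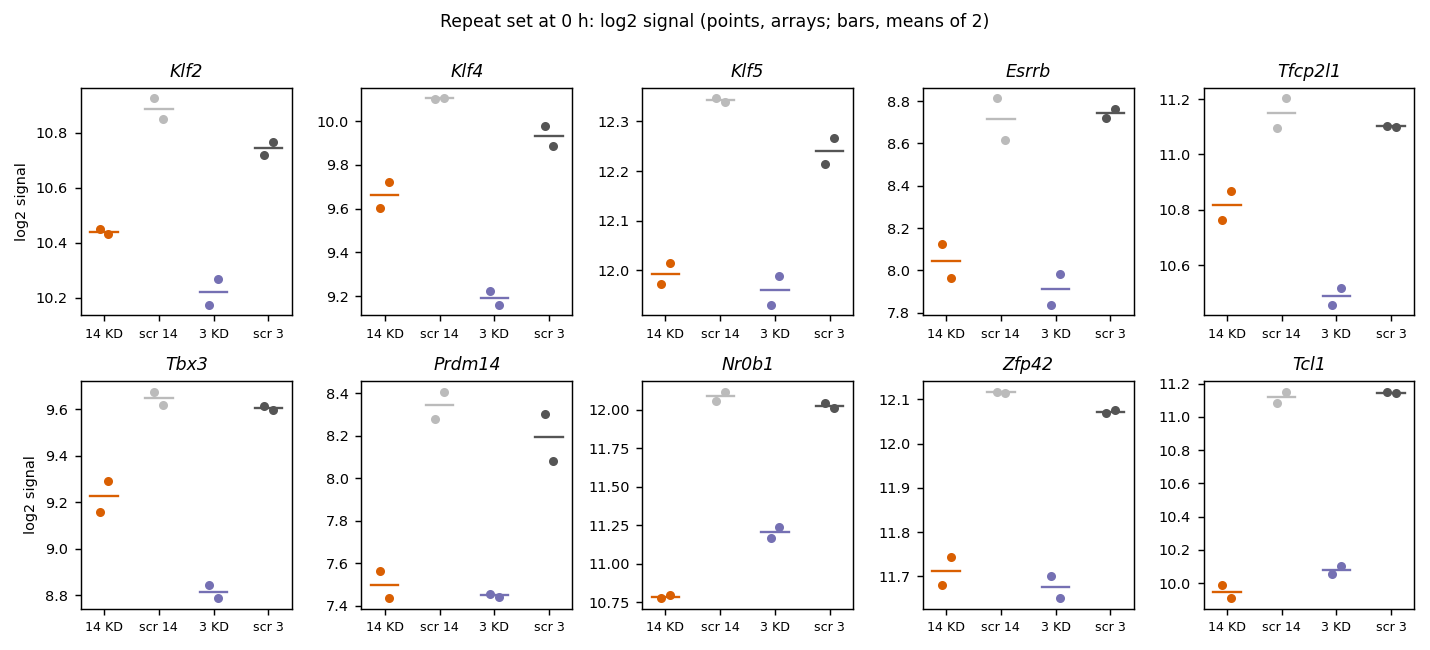
Log2 signal of the 10 regulators on the 8 arrays of the repeat set at 0 h. Points are arrays, bars are means of 2, 14 KD and 3 KD are the Mettl14 and Mettl3 knockdowns and scr 14 and scr 3 are their scramble controls. Each panel has its own scale that does not start at 0. For every gene both knockdown arrays lie below both arrays of their own scramble, a separation that was not counted over all genes.

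Klf2 stood at 10.45 and 10.43 in Mettl14 knockdown against 10.93 and 10.85 in its scramble, and at 10.18 and 10.27 in Mettl3 knockdown against 10.72 and 10.77 in its own. It kept 73.4% and 69.7% of the scramble signal. Klf4 stood at 9.60 and 9.72 in Mettl14 knockdown against 10.10 and 10.11 in its scramble, and at 9.22 and 9.16 in Mettl3 knockdown against 9.98 and 9.89 in its own, keeping 73.7% and 59.9%. Klf5, which had not passed the test with Mettl14 knockdown in the time course, stood at 11.97 and 12.02 in Mettl14 knockdown against 12.35 and 12.34 in scramble (-0.35 ± 0.04, adjusted p = 0.00127). With Mettl3 knockdown it stood at 11.93 and 11.99 against 12.21 and 12.27 (-0.28 ± 0.04, adjusted p = 0.00351). The 3 Krüppel-like factors thus kept between 59.9% and 82.3% of scramble in this set.

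Esrrb stood at 8.12 and 7.96 in Mettl14 knockdown against 8.81 and 8.62 in its scramble, and at 7.84 and 7.98 in Mettl3 knockdown against 8.72 and 8.76 in its own (-0.67 ± 0.09 and -0.83 ± 0.09). Tfcp2l1 stood at 10.76 and 10.87 in Mettl14 knockdown against 11.09 and 11.20, and at 10.46 and 10.52 in Mettl3 knockdown against 11.10 on both scramble arrays (-0.33 ± 0.06 and -0.61 ± 0.06). Here the larger Tfcp2l1 loss was with Mettl3 knockdown, the opposite order to the time course, but the 2 effects did not differ in a test of the difference (0.28 ± 0.08, adjusted p = 0.132). Tbx3 stood at 9.16 and 9.29 in Mettl14 knockdown against 9.68 and 9.62, and at 8.84 and 8.79 in Mettl3 knockdown against 9.61 and 9.60 (-0.42 ± 0.06 and -0.79 ± 0.06). Prdm14 stood at 7.56 and 7.44 in Mettl14 knockdown against 8.28 and 8.41, and at 7.46 and 7.44 in Mettl3 knockdown against 8.31 and 8.08 (-0.84 ± 0.09 and -0.74 ± 0.09). These 4 factors passed the test as lower than scramble with both knockdowns.

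Nr0b1 and Tcl1 had the deepest losses of the set with Mettl14 knockdown, and Tcl1 and Esrrb with Mettl3 knockdown. Nr0b1 stood at 10.78 and 10.80 in Mettl14 knockdown against 12.06 and 12.12 in its scramble, and at 11.17 and 11.24 in Mettl3 knockdown against 12.04 and 12.01 in its own. It kept 40.6% with Mettl14 knockdown (-1.30 ± 0.05, adjusted p = 2.11e-05) and 56.5% with Mettl3 knockdown (-0.82 ± 0.05, adjusted p = 6.77e-05). The Nr0b1 effects differed by -0.48 ± 0.07 (adjusted p = 0.0183), the only 1 of the 10 to differ between the knockdowns in this set, beside 3.04% of all genes. That call did not pass in 7 of the fits that left out an array of the set. Tcl1 stood at 9.99 and 9.91 in Mettl14 knockdown against 11.09 and 11.15, and at 10.05 and 10.10 in Mettl3 knockdown against 11.15 and 11.14, keeping 44.5% and 47.8%. Zfp42 stood at 11.68 and 11.74 in Mettl14 knockdown against 12.12 and 12.11, and at 11.70 and 11.65 in Mettl3 knockdown against 12.07 on both arrays, keeping 75.7% and 76.0%.

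The size of the knockdown effect differed between the sets for 9 of the 10 genes with Mettl14 knockdown (7 lower and 2 higher in the time course, beside 8.64% and 7.86% of all genes). With Mettl3 knockdown it differed for 4 of the 10, all lower in the time course, beside 3.66% of all genes. Klf4 fell further in the time course, with differences of -0.76 ± 0.13 for Mettl14 knockdown and -0.66 ± 0.13 for Mettl3 knockdown (adjusted p = 0.000486 and 0.0026), as did Klf2 (-0.46 ± 0.11 and -0.56 ± 0.11) and Tbx3 (-0.74 ± 0.11 and -0.38 ± 0.11). Nr0b1 went the other way with Mettl14 knockdown, where its loss was 0.80 ± 0.06 smaller in the time course (adjusted p = 2.19e-07), and with Mettl3 knockdown its loss was nearly equal in the sets (-0.00 ± 0.06, adjusted p = 0.999). Tfcp2l1 fell further in the time course with Mettl14 knockdown (-0.76 ± 0.08, adjusted p = 5.63e-06), while its Mettl3 knockdown difference was -0.12 (95% interval -0.29 to 0.05). The sets differ in their scramble arrays as well as in their knockdown arrays, and the labels do not say how they were made differently.

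**Figure D2:**
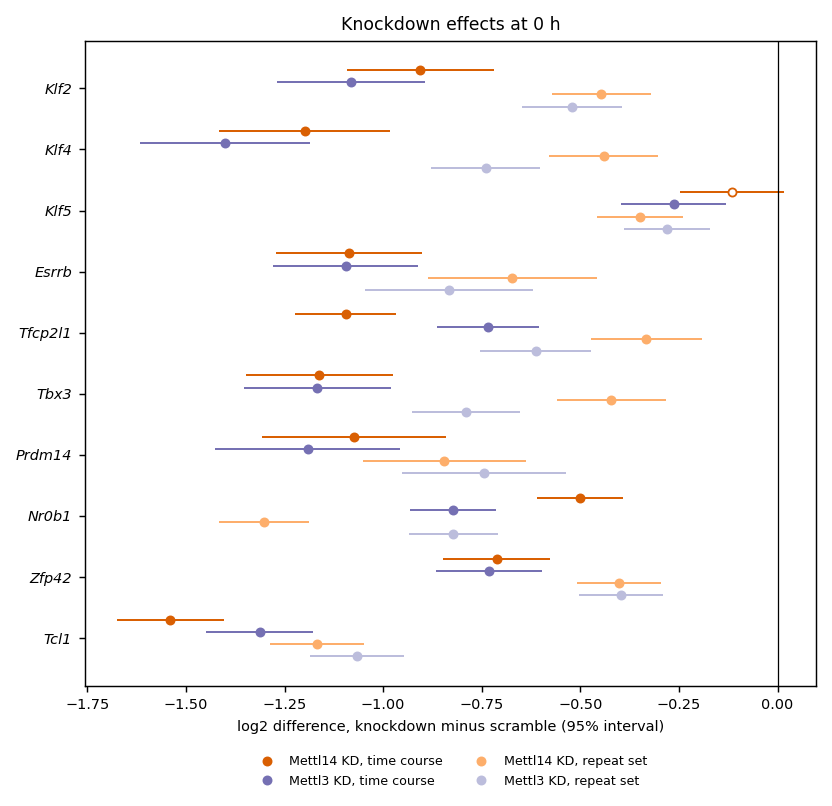
Log2 differences at 0 h, knockdown minus scramble, of the 10 regulators in both sets. Points are limma estimates from 2 arrays a group, lines their 95% intervals, and a filled point has an adjusted p under 0.05. All estimates lie below 0, and Klf5 with Mettl14 knockdown in the time course is the only open point.

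Over 8 h the regulators took different courses in scramble cells. Klf2, Klf4, Klf5, Tbx3 and Zfp42 were lower at 4 h than at 0 h and lower again at 8 h than at 4 h, while Tfcp2l1 and Tcl1 were higher at 4 h than at 0 h. Of all genes, 13.5% were lower and 32.7% higher at 4 h than at 0 h, and 12.8% were lower at 8 h than at 4 h. Of the 10, 7 were lower and 2 higher at 8 h than at 0 h, beside 21.6% lower and 39.2% higher of all genes, and their median was -0.82 beside 0.15 over all genes. Arrays normalized by RMA show a change relative to the average transcript. When the median of a fixed list of long-lived transcripts was made equal in every array, the median of all genes at 8 h against 0 h in scramble moved to -0.23.

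**Figure D3:**
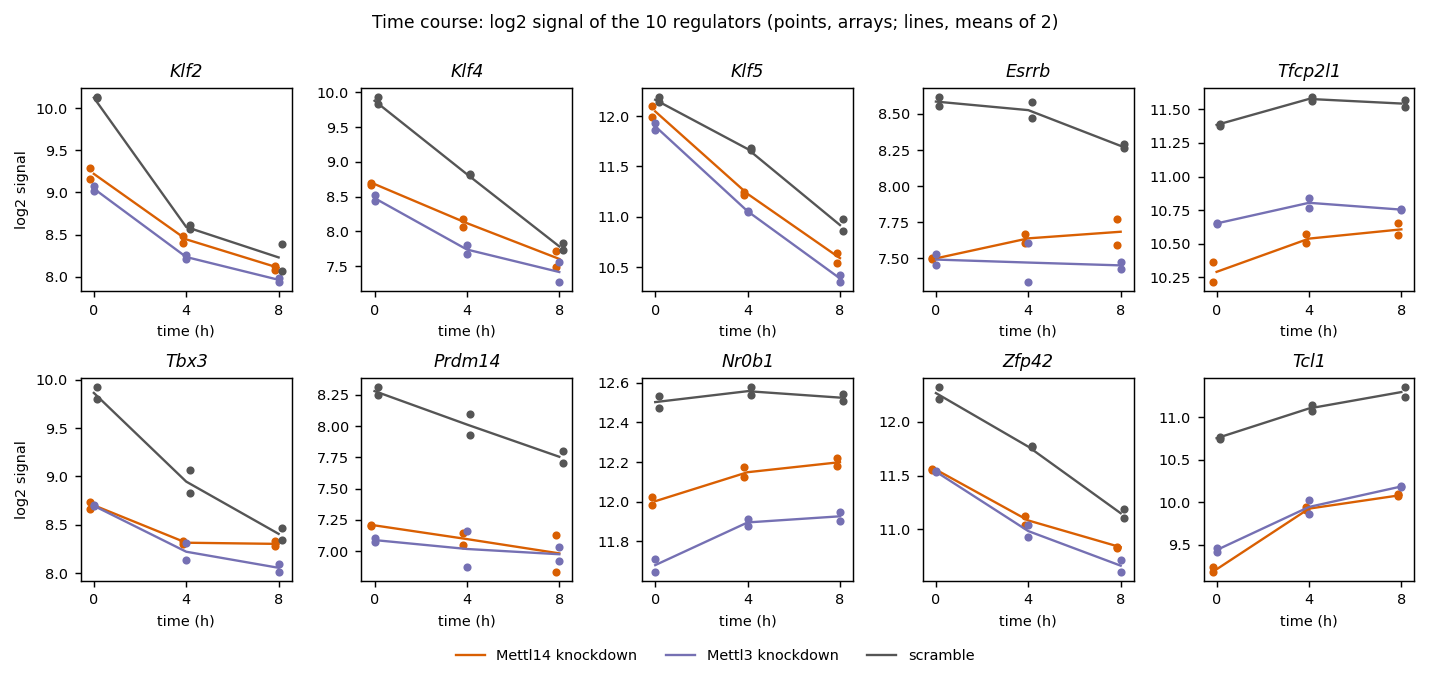
Log2 signal of the 10 regulators at 0 h, 4 h and 8 h. Points are arrays, shifted sideways a little by treatment, and lines join means of 2 for Mettl14 knockdown (orange), Mettl3 knockdown (purple) and scramble (grey). Each panel has its own scale that does not start at 0. The treatments draw close by 8 h for Klf2, Klf4 and Tbx3, while knockdown and scramble stay apart for Tfcp2l1, Nr0b1 and Tcl1.

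Klf2 in scramble cells stood at 10.13 and 10.12 at 0 h, 8.62 and 8.56 at 4 h, and 8.39 and 8.07 at 8 h. Most of its loss fell in the first 4 h (-1.54 ± 0.08, leaving 34.4%), with -0.36 ± 0.08 after that. Klf4 stood at 9.83 and 9.93 at 0 h, 8.81 and 8.83 at 4 h, and 7.84 and 7.73 at 8 h, a like loss in each interval (-1.06 ± 0.10 and -1.04 ± 0.10). Tbx3 stood at 9.92 and 9.80 at 0 h, 9.07 and 8.82 at 4 h, and 8.47 and 8.34 at 8 h. At 8 h these 3 kept 26.8%, 23.4% and 36.4% of their 0 h signal, the lowest shares of the 10. Klf5 stood at 12.14 and 12.19, 11.66 and 11.69, and 10.98 and 10.86 at 0 h, 4 h and 8 h, and Zfp42 at 12.21 and 12.33, 11.77 on both arrays, and 11.19 and 11.11. They kept 42.2% and 46.1% at 8 h.

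Of the other 5 genes, Esrrb and Prdm14 were lower at 8 h than at 0 h in scramble cells, Tfcp2l1 and Tcl1 were higher, and Nr0b1 did not pass the test. Esrrb stood at 8.62 and 8.56 at 0 h, 8.58 and 8.47 at 4 h, and 8.29 and 8.27 at 8 h (-0.31 ± 0.08 at 8 h against 0 h, adjusted p = 0.00686). Prdm14 stood at 8.31 and 8.25, 7.93 and 8.10, and 7.71 and 7.80 (-0.53 ± 0.11, adjusted p = 0.00108). Nr0b1 stood at 12.47 and 12.53, 12.54 and 12.58, and 12.51 and 12.54, so that 0 h and 8 h overlapped (0.02 ± 0.05, adjusted p = 0.704). The Nr0b1 difference at 8 h turned negative with long-lived transcripts held equal, so its level course depended on the scaling. Tfcp2l1 stood at 11.38 and 11.39, 11.57 and 11.59, and 11.57 and 11.52, a difference of 0.16 ± 0.06 at 8 h (adjusted p = 0.0306) that turned to -0.22 with long-lived transcripts held equal. Tcl1 stood at 10.76 and 10.74, 11.14 and 11.07, and 11.23 and 11.35 (0.54 ± 0.06, adjusted p = 1.2e-05), and with long-lived transcripts held equal it kept its direction but not its call.

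Klf2, Klf4, Klf5, Tbx3 and Zfp42 fell in both knockdowns over 8 h as well. In all 5 of the 10 were lower and 3 higher with Mettl14 knockdown and 5 lower and 2 higher with Mettl3 knockdown at 8 h. Of all genes, 19.4% were lower and 36.8% higher with Mettl14 knockdown, and 19.2% lower and 36.9% higher with Mettl3 knockdown. Klf2 with Mettl14 knockdown stood at 9.29 and 9.15 at 0 h, 8.48 and 8.40 at 4 h, and 8.13 and 8.08 at 8 h, and with Mettl3 knockdown at 9.07 and 9.02, 8.25 and 8.21, and 7.94 and 7.99. Klf4 stood at 8.69 and 8.67, 8.18 and 8.06, and 7.49 and 7.72 with Mettl14 knockdown, and at 8.53 and 8.43, 7.81 and 7.67, and 7.27 and 7.56 with Mettl3 knockdown. Tbx3 stood at 8.67 and 8.74, 8.33 and 8.30, and 8.33 and 8.28 with Mettl14 knockdown, and at 8.70 and 8.69, 8.13 and 8.31, and 8.02 and 8.09 with Mettl3 knockdown. These 3 genes began below scramble and lost less. At 8 h Klf2 kept 46.1% and 47.2% of its 0 h signal in Mettl14 and Mettl3 knockdown, Klf4 47.4% and 47.8%, and Tbx3 75.8% and 64.1%.

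Klf5 and Zfp42 kept falling. Klf5 stood at 12.10 and 12.00 at 0 h, 11.21 and 11.24 at 4 h, and 10.54 and 10.64 at 8 h with Mettl14 knockdown, and at 11.86 and 11.93, 11.06 and 11.05, and 10.42 and 10.35 with Mettl3 knockdown, keeping 36.4% and 35.1%. Zfp42 stood at 11.56 and 11.55, 11.04 and 11.12, and 10.84 and 10.83 with Mettl14 knockdown, and at 11.54 and 11.53, 10.93 and 11.04, and 10.61 and 10.72 with Mettl3 knockdown, keeping 60.6% and 54.5%. Their times did not overlap within either knockdown, a separation that was not counted over all genes.

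Esrrb and Prdm14 did not pass the test at 8 h against 0 h in either knockdown, where Esrrb differed by 0.18 ± 0.08 and -0.04 ± 0.08 and Prdm14 by -0.22 ± 0.11 and -0.11 ± 0.11 (Mettl14 and Mettl3 knockdown). Their 4 h and 8 h arrays ranged from 7.34 to 7.77 for Esrrb and from 6.84 to 7.16 for Prdm14. They were the dimmest probe sets of the 10, with mean log2 signals over the 26 arrays of 8.00 and 7.53. Whether a low signal limited a further fall was not tested. Tcl1 was higher at 8 h, at 10.09 and 10.08 with Mettl14 knockdown and 10.18 and 10.19 with Mettl3 knockdown (0.87 ± 0.06 and 0.75 ± 0.06). Nr0b1 stood at 12.12 and 12.17 at 4 h and 12.22 and 12.18 at 8 h with Mettl14 knockdown, and at 11.91 and 11.88, then 11.90 and 11.95, with Mettl3 knockdown. Its 8 h differences of 0.20 ± 0.05 and 0.25 ± 0.05 passed the test, and turned to -0.096 and -0.036 with long-lived transcripts held equal. Tfcp2l1 stood at 10.65 and 10.56 at 8 h with Mettl14 knockdown (0.32 ± 0.06, adjusted p = 0.000517) and at 10.76 and 10.75 with Mettl3 knockdown (0.10 ± 0.06, adjusted p = 0.151). The latest Tfcp2l1 signals in the knockdowns stayed below the lowest of scramble.

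Whether the loss over time was slower in the knockdowns was tested as the change in a knockdown minus the change in scramble. By 8 h Klf2, Klf4 and Tbx3 had lost less in both knockdowns. With Mettl14 knockdown 6 of the 10 passed, all on the positive side, beside 3.58% of all genes, and with Mettl3 knockdown 3 of the 10, beside 2.46%. The medians of the 10 were 0.36 and 0.26, beside 0.01 over all genes for either. The 2 knockdowns share the scramble arrays in these comparisons. The value also equals the knockdown effect at 8 h minus that at 0 h, from the same arrays, so a gene that began lower and ended level with scramble has a positive value. The part of the lower starting level was not tested.

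For Klf4 the difference of the 8 h changes was 1.02 ± 0.14 with Mettl14 knockdown (adjusted p = 0.00206) and 1.03 ± 0.14 with Mettl3 knockdown (adjusted p = 0.00262). For Tbx3 it was 1.06 ± 0.12 (adjusted p = 0.000615) and 0.82 ± 0.12 (adjusted p = 0.00409), and for Klf2 0.78 ± 0.12 (adjusted p = 0.0038) and 0.82 ± 0.12 (adjusted p = 0.00415). These 6 calls held in every alternative fit and in each fit that left out an array. Esrrb (0.49 ± 0.12, adjusted p = 0.0342), Zfp42 (0.40 ± 0.09, adjusted p = 0.0227) and Tcl1 (0.33 ± 0.09, adjusted p = 0.0484) passed with Mettl14 knockdown only, and each lost its call in several fits that left out an array. With Mettl3 knockdown the same 3 had 0.27 (95% interval 0.01 to 0.52), 0.24 (0.06 to 0.43) and 0.20 (0.02 to 0.39), which missed the threshold after adjustment. Whether the knockdowns differed in these changes was not tested. Klf5 was the only gene of the 10 below 0 with both knockdowns (-0.21 ± 0.08 and -0.27 ± 0.08, adjusted p = 0.187 and 0.113), so that no slower loss was seen for it. Prdm14, Nr0b1 and Tfcp2l1 did not pass in either knockdown, with values between -0.06 and 0.41.

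**Figure D4:**
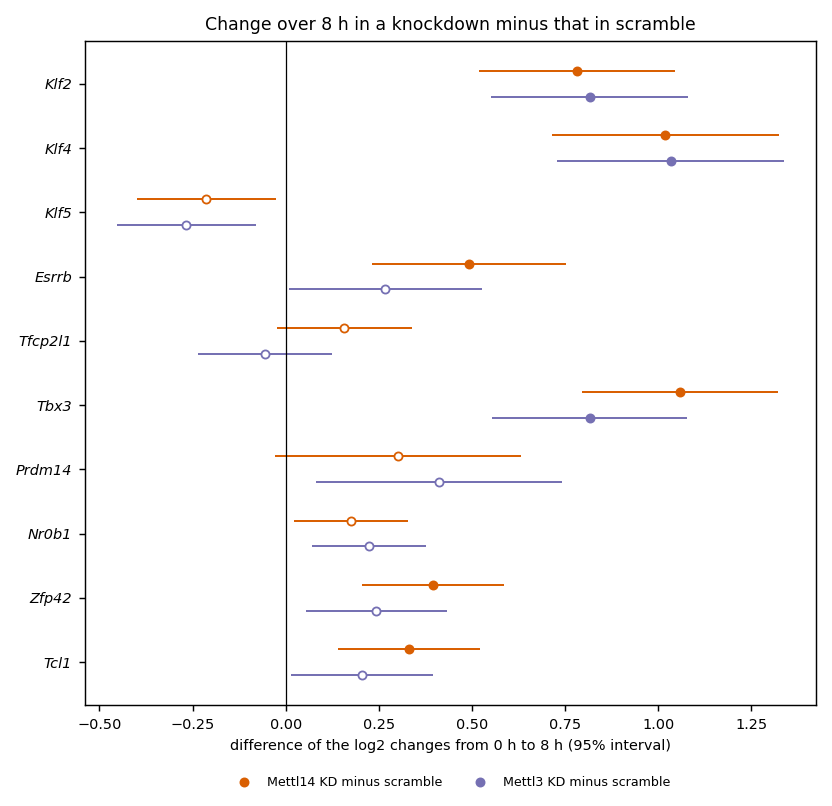
Change from 0 h to 8 h in a knockdown minus that in scramble, in log2 units, for the 10 regulators. Points are limma estimates, lines their 95% intervals, and a filled point has an adjusted p under 0.05. Klf2, Klf4 and Tbx3 are filled for both knockdowns, at 0.78 to 1.06, and Klf5 lies below 0 for both.

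By 4 h this difference passed for Klf2 with Mettl14 knockdown alone (0.76 ± 0.12, adjusted p = 0.0431), beside 0.0744% of all genes on the positive side. The call did not hold in any fit that left out an array of the time course other than the 2 scramble arrays at 8 h. With Mettl3 knockdown Klf2 had 0.72 ± 0.12 (adjusted p = 0.0691) and none of the 10 passed by limma, beside 0.0609% of all genes in either direction. At an unadjusted p under 0.05 there were 5, and 2 passed after adjustment with trend and robust settings. No share of all genes is given for those other rules. In the interval from 4 h to 8 h none of the 10 passed with either knockdown by limma, beside 0% of all genes with Mettl14 knockdown and 0.0406% with Mettl3 knockdown. At an unadjusted p under 0.05 there were 4 with Mettl14 knockdown and 3 with Mettl3 knockdown. After adjustment with trend and robust settings 1 passed with each. Here too no share of all genes is given for the other rules. Klf4 came to 0.52 ± 0.14 and 0.72 ± 0.14 in that interval (adjusted p = 0.219 and 0.158).

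The gap to scramble at later times differed among the 10. Of the 10, 9 were lower than scramble with Mettl14 knockdown at 4 h (19.5% of all genes) and 7 at 8 h (19.8%), and with Mettl3 knockdown all 10 were lower at 4 h (18.4%) and at 8 h (19%). Klf2, Klf4 and Tbx3 no longer passed with Mettl14 knockdown at 8 h, at 91.8%, 88.3% and 93.0% of scramble, and the Klf2 arrays overlapped. With Mettl3 knockdown at 8 h they stood at 83.2%, 77.5% and 78.4%, where the Klf2 and Klf4 calls were lost without replicate 1 of scramble or of Mettl3 knockdown at 8 h, and that of Klf2 also without replicate 2 of Mettl3 knockdown. Tcl1 remained far below scramble, at 44.3% and 43.2% with Mettl14 knockdown at 4 h and 8 h and at 44.9% and 46.4% with Mettl3 knockdown. Tfcp2l1 likewise stood at 52.2% and 57.8% at 8 h, and Prdm14 at 58.5% and 58.2%. Klf5 was the only gene of the 10 whose gap to scramble was larger at 4 h and at 8 h than at 0 h in both knockdowns, at 73.4% and 79.6% with Mettl14 knockdown and 65.1% and 69.2% with Mettl3 knockdown, although the differences of the changes did not pass the test. Tfcp2l1 with Mettl3 knockdown was the other such case, at 60.1%, 58.5% and 57.8% of scramble at 0 h, 4 h and 8 h.

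Most other genes of the naive state were lower at 0 h too. Of 16 listed, 14 were tested. In the time course 11 were lower with Mettl14 knockdown and all 14 with Mettl3 knockdown, beside 20.1% and 18.6% of all genes. In each repeat comparison 13 were lower, beside 16.9% of all genes with Mettl14 knockdown and 17.4% with Mettl3 knockdown. The remaining gene in the repeat set with Mettl14 knockdown, Dppa3, named after its value was seen, was higher (0.34 ± 0.07, adjusted p = 0.00795). Jam2, a junctional adhesion molecule, fell with both (-1.28 ± 0.05 and -1.25 ± 0.05), as did Tet1, a dioxygenase that oxidises methylated cytosine (-0.52 ± 0.04 and -0.71 ± 0.04). The list's medians were -0.50 and -0.75. Fgf4, a growth factor that drives exit from the naive state, fell over 8 h in scramble cells (-2.21 ± 0.09), and its 8 h change was less negative in both knockdowns (1.00 ± 0.13 and 0.90 ± 0.13, adjusted p = 0.00174 and 0.00447). It was the only gene of that list to pass this test with Mettl3 knockdown, while 3 of 14 passed with Mettl14 knockdown. On the positive side 2.46% of all genes passed with Mettl3 knockdown and 3.58% with Mettl14 knockdown.

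Among 8 genes that carry the LIF signal, 4 were lower and 2 higher with Mettl14 knockdown at 0 h, and 5 lower and 2 higher with Mettl3 knockdown. Of all genes, 20.1% were lower and 19.4% higher with Mettl14 knockdown, and 18.6% and 19.3% with Mettl3 knockdown. The medians of the 8 were -0.15 and -0.28, with values up to 0.46 and 0.81. Lifr, the receptor (-1.13 ± 0.07 and -0.88 ± 0.07), Socs3, a feedback inhibitor induced by Stat3 (-0.81 ± 0.08 and -1.01 ± 0.08), and Stat3 itself (-0.34 ± 0.05 and -0.95 ± 0.05) fell with both knockdowns. In the repeat set Lifr fell too (-0.73 ± 0.06 and -0.75 ± 0.06). Of the 8 there, 4 were lower and 2 higher with Mettl14 knockdown (median -0.09, values up to 0.94). With Mettl3 knockdown 5 were lower and 1 higher (median -0.28, values up to 0.49). The shares of all genes there were 16.9% lower and 19.4% higher with Mettl14 knockdown, and 17.4% lower and 17.9% higher with Mettl3 knockdown. Socs3 fell over 8 h in scramble cells (-1.77 ± 0.08) and lost less in the knockdowns (0.48 ± 0.11 and 0.72 ± 0.11, adjusted p = 0.0297 and 0.00538). Of 7 core pluripotency genes tested, 3 were lower with Mettl14 knockdown and 4 with Mettl3 knockdown at 0 h, beside 20.1% and 18.6% of all genes. Among them was Nanog (-0.72 ± 0.05 and -0.82 ± 0.05). Their counts, medians and extremes equal those of the embryonic stem cell markers summed above, so the lists do not give separate evidence. Higher with Mettl3 knockdown was 1 of the 7, Lin28a (0.24 ± 0.06, adjusted p = 0.00617), which was named after its value was seen.

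Of 8 genes of the primed epiblast, 6 were higher and 1 lower with either knockdown at 0 h in the time course, beside 19.4% of all genes higher with Mettl14 knockdown and 19.3% with Mettl3 knockdown. Their medians were 0.99 and 0.96. In the repeat set 3 were higher and 1 lower with Mettl14 knockdown (median 0.13, beside 19.4% of all genes higher), and 6 higher and 1 lower with Mettl3 knockdown (median 0.64, beside 17.9%). Fgf5, a growth factor that marks the primed state, was higher by 3.02 ± 0.12 and 2.45 ± 0.12 and in the repeat set by 1.38 ± 0.08 and 1.63 ± 0.08. Of 10 repressors of the naive network, 1 was higher with either knockdown in the time course, Otx2, a homeobox factor of the primed state (1.12 ± 0.14 and 1.02 ± 0.14). A further 3 and 4 were lower, beside 20.1% and 18.6% of all genes. Otx2 in the repeat set was higher with Mettl3 knockdown (0.81 ± 0.05, adjusted p = 7.85e-05) and differed by 0.02 ± 0.05 with Mettl14 knockdown (adjusted p = 0.738). Of the repressors there, 5 were lower and 5 did not pass with Mettl14 knockdown, while 2 were higher and 3 lower with Mettl3 knockdown. The shares of all genes lower there were 16.9% and 17.4%.

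Of 14 other Krüppel-like genes, 6 were lower and 2 higher with Mettl14 knockdown at 0 h, and 3 lower and 2 higher with Mettl3 knockdown, with medians of -0.12 and -0.10. The shares of all genes were 20.1% lower and 19.4% higher with Mettl14 knockdown and 18.6% lower and 19.3% higher with Mettl3 knockdown, so the Mettl3 counts lay near the background. Klf6 was higher by 0.61 ± 0.09 and 0.72 ± 0.09 and Klf7 by 0.65 ± 0.08 and 0.55 ± 0.08, while Klf12 was lower (-0.58 ± 0.09 and -0.49 ± 0.09). Klf6 in the repeat set differed by 0.16 ± 0.04 and 0.10 ± 0.04 and Klf7 by 0.16 ± 0.05 and 0.11 ± 0.05, which passed with Mettl14 knockdown and not with Mettl3 knockdown, and Klf12 was lower with both (-0.79 ± 0.07 and -0.76 ± 0.07). Over 8 h in scramble cells 11 of the 14 fell, among them Klf9 (-2.73 ± 0.10), Klf10 (-1.78 ± 0.07) and Klf6 (-1.69 ± 0.09). Of all genes, 21.6% were lower at 8 h than at 0 h there. Klf10 was the only 1 of the 14 whose 8 h change differed with Mettl14 knockdown (0.56 ± 0.09, adjusted p = 0.00591). On the positive side 3.58% of all genes passed that test. Of 13 tested relatives of the other 7 genes, 1 passed with Mettl14 knockdown at 0 h in the time course, the T-box gene Tbx4, which was higher (0.36 ± 0.10, adjusted p = 0.0169). In that comparison 20.1% of all genes were lower and 19.4% higher. In the repeat set 2 were lower with Mettl14 knockdown and 1 with Mettl3 knockdown, among them Prdm1, a repressor of the Prdm family (-0.40 ± 0.05 and -0.38 ± 0.05). Of all genes, 16.9% and 17.4% were lower in these 2 comparisons.

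Likeness of course was described by Pearson's r over the 13 group means, each set centred on the mean of its own groups. The groups share arrays with the comparisons above, and r carries no test. Among the 10 themselves, r ran from -0.06 for Klf5 with Tcl1 to 0.97 for Klf4 with Zfp42. Esrrb with Prdm14 (0.97), Klf4 with Tbx3 (0.97) and Tfcp2l1 with Tcl1 (0.92) were other close pairs. Genes named Gm with a number or Rik were left out of the search for neighbours. Over the other genes tested, the nearest to Klf4 was Brwd1 (0.97), to Klf2 Pars2 (0.98), to Klf5 Fam160b1 (0.99), to Esrrb Jam2 (0.99), to Tfcp2l1 Agk (0.98) and to Tbx3 Zfp229 (0.98). The nearest to Prdm14 was Cdyl2 (0.98), to Nr0b1 Gpa33 (0.98), to Zfp42 Ptpn3 (0.99) and to Tcl1 Prps1 (0.996). Jam2 is the single gene among these 10 neighbours that the list of other naive-state genes also held.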

How the data were processed

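The authors deposited 1 log2 intensity for each probe set and array. Per the submitters' processing notes, oligo and its RMA method gave these values, and the versions are not given in the sources used here. RMA corrects background, makes the array distributions equal and summarises probes, so that global shifts of RNA are removed. Of 41345 probe sets, 23521 were paired with exactly 1 gene symbol, 1814 with several and 16010 were not listed. The brightest probe set by mean over the 26 arrays stood for each of 22180 genes. The 7393 dimmest genes were left out and 14787 tested, with a lowest mean of 6.

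All comparisons used two-sided tests of limma 3.58.1 (R 4.3.3), by lmFit with eBayes, and Benjamini-Hochberg adjustment over all genes tested and a threshold of 0.05. The time course had 9 residual degrees of freedom and the repeat set 4. Differences between the sets came from a fit over all 26 arrays with 13. The scripts were tested on simulated data. The number of arrays limits the precision. Deviations of samples with the same replicate number had no common direction, so no block entered the main comparison. In the time course 12 of 36 pairs of groups correlated above 0.1 and 12 below -0.1, with a median of 0.031. In the repeat set 0 pairs went beyond either bound. Whether the arrays of the time course share a factor that the replicate numbers do not follow was not tested.

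The 10 genes and the gene lists were chosen with earlier results of these data known. Beside the 10, up to 4 genes of a list with the smallest adjusted p in a comparison could be named, and the genes nearest to each of the 10 in r. Promoters came from RefSeq (GRCm38.p6). Alternatives were no dim filter, eBayes with trend and robust, a replicate block, equal medians of 32 tested long-lived transcripts, repeated quantile normalization, a fit over 26 arrays, the mean of probe sets and leaving out each array.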

Additional observations from a re-analysis of the deposited data

Results flagged for a closer look

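A difference between treatments in the change over time was called for several of the 10 genes. By 4 h the change of Klf2 in Mettl14 knockdown minus that in scramble was 0.759. By 8 h the Mettl14 knockdown minus scramble values were 0.782 for Klf2, 1.02 for Klf4, 0.492 for Esrrb, 1.06 for Tbx3, 0.396 for Zfp42 and 0.33 for Tcl1. With Mettl3 knockdown they were 0.816 for Klf2, 1.03 for Klf4 and 0.816 for Tbx3.

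A difference between the sets in the 0 h effect, time course minus repeat set, was called with Mettl14 knockdown for Klf2 (-0.459), Klf4 (-0.758), Klf5 (0.234), Esrrb (-0.415), Tfcp2l1 (-0.762), Tbx3 (-0.74), Nr0b1 (0.802), Zfp42 (-0.31) and Tcl1 (-0.371). With Mettl3 knockdown it was called for Klf2 (-0.561), Klf4 (-0.661), Tbx3 (-0.377) and Zfp42 (-0.335). The Klf5 call with Mettl14 knockdown and the Tbx3 call with Mettl3 knockdown were lost in 13 and 7 of the fits that left out an array, and both Zfp42 calls were lost without replicate 2 of scramble at 0 h.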

How the results depend on the processing

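The counts of regulators called at 0 h, 4 h and 8 h against scramble in the time course, and at 0 h in the repeat set, stayed within 1.5 times under every alternative. The calls that Klf2, Klf4 and Tbx3 lost less by 8 h in either knockdown than in scramble held in all of them. For the 4 h change with Mettl14 knockdown minus scramble (1 regulator called), 0 were called without the dim filter and with long-lived transcripts equal, 3 with trend and robust and 3 in the fit over 26 arrays, and 0 to 1 when an array was left out. By 8 h (6 called) it was 3 without the dim filter and 3 to 6 with an array left out. For Mettl3 knockdown minus scramble at 4 h (0 called) it was 2 with trend and robust, 1 in the fit over 26 arrays, 1 with the replicate block, and 0 to 1 with an array left out. By 8 h (3 called) it was 6 with trend and robust, 5 with long-lived transcripts equal and 5 over 26 arrays. For the change from 4 h to 8 h minus that in scramble (0 called with either knockdown), Mettl14 knockdown gave 1 with trend and robust and 2 over 26 arrays, and Mettl3 knockdown 1 under each of these and with long-lived transcripts equal. For 8 h against 4 h, scramble (5 called) gave 9 with long-lived transcripts equal, Mettl14 knockdown (4 called) 2 without the dim filter and 1 to 4 with an array left out, and Mettl3 knockdown (3 called) 5 with trend and robust, 5 over 26 arrays and 1 to 4 with an array left out. The difference between the knockdown effects in the repeat set (1 called) gave 0 without the dim filter, 4 with trend and robust, and 0 to 1 with an array left out. The repeat scramble controls (0 called) gave 2 with trend and robust, Klf2 and Klf4. The difference between the sets with Mettl3 knockdown (4 called) gave 8 with long-lived transcripts equal. With long-lived transcripts equal, directions turned over time for Tfcp2l1 in scramble (-0.016 at 4 h and -0.22 at 8 h), Tfcp2l1 with Mettl3 knockdown (-0.043 and -0.18), Nr0b1 in scramble (-0.36 at 8 h), Nr0b1 with Mettl14 knockdown (-0.066 and -0.096) and Nr0b1 with Mettl3 knockdown (-0.036 at 8 h). That scaling moved the median of all genes at 8 h against 0 h from 0.15 to -0.23 in scramble. The cause of the other changes was not tested. Shares of all genes under the alternatives are not given, so these counts show only how the calls moved and not how the 10 compare with all genes. Replicate numbers did not pair the arrays in a common direction: deviations of same-numbered arrays correlated at -0.44 to 0.34 in the time course and -0.047 to 0.042 in the repeat set. With the replicate block the counts at 0 h against scramble were 9 for Mettl14 knockdown and 10 for Mettl3 knockdown.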
